A study of Mus musculus with 7 samples.

Results

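The synaptic vesicle and release machinery was described through 51 genes listed by symbol, of which 50 were measured by a probe set with a single gene symbol, out of 22180 genes measured in this way. The 1 absent gene, Doc2a, was represented by a probe set that carried several symbols and is not reported here. The 7 one-colour Affymetrix arrays held RNA that was precipitated with GFP-tagged ribosomes from mouse medial prefrontal cortex (mPFC). All mice carried a Cre-dependent ribosome tag (the ribosome TRAP line) together with ArcCre, a transgene that puts Cre under control of the activity-regulated gene Arc, and all received tamoxifen around the exposure. The cocaine group (4 arrays, numbered 4 to 7) held ribosomes tagged in cells active during cocaine at 15 mg/kg on 2 days, and the shock group (3 arrays, numbered 4 to 6) those tagged in cells active during 20 shocks of 2 s at 0.5 mA on 2 days. The labels do not give the age or sex of the animals, and they do not say if each array is its own animal or pool. All p-values therefore reflect array-to-array spread alone, part of which may be technical. The tag marks cells that drove Cre from Arc, so cells without Arc activity in that window are not tagged by design. Markers of glia and endothelium were also measured, as given below, and the share of RNA from untagged cells was not tested. An array of a precipitate cannot tell fewer cells of a type from less RNA per cell.

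Neurons store transmitter in synaptic vesicles, which dock at the active zone of the presynaptic membrane, are primed, fuse when calcium enters, and are then retrieved by endocytosis and refilled. Fusion is driven by SNARE proteins on vesicle and plasma membrane, is triggered by synaptotagmins as calcium sensors, and is held in check and speeded by complexins. The transcripts of these proteins are made in the cell body of projection neurons and interneurons alike, while the proteins serve the distant terminals.

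Promoters are shown for 4 members that the results turn on or that hold a motif. RefSeq promoter windows of GRCm38.p6, from 250 bases before to 50 after an annotated start, were found for 39 of the 50 measured members. The windows were GC-rich, with a median of 66.0% G or C over the 39 members against 52.8% over all genes in the table. The cAMP response element TGACGTCA, bound by the activity-regulated factor CREB, was searched on both strands and was present for Syn1 and Napa, in 5.13% of the members against 2.03% of all genes. The left part of the RE1 element, TTCAGCACC, which is bound by the neuronal gene repressor REST, was present for Syn1 and Unc13a, in 5.13% of the members against 0.433% of all genes. The TATA letters TATAAA were present for Rab3b and Sv2b, in 5.13% of the members against 15.7% of all genes. These motifs did not overlap each other in the windows shown, they were chosen after the promoter table had been read, and a match is a description of letters only. The promoters of Syn1 (chrX:20920869-20921168, minus strand), Napa (chr7:16098330-16098629, plus strand), Unc13a (chr8:71671708-71672007, minus strand) and Rab3b (chr4:108878820-108879119, plus strand) follow, read in the direction of transcription. Capitals mark TGACGTCA in Syn1 and Napa, TTCAGCACC in Syn1 and, on the opposite strand, in Unc13a, and TATAAA in Rab3b.
Syn1: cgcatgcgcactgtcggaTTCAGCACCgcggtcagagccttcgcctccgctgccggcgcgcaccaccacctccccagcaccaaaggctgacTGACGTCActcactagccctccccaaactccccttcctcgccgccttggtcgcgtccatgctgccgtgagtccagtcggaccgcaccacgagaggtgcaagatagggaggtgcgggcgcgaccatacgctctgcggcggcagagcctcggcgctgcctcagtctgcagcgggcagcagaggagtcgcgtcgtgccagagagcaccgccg
Napa: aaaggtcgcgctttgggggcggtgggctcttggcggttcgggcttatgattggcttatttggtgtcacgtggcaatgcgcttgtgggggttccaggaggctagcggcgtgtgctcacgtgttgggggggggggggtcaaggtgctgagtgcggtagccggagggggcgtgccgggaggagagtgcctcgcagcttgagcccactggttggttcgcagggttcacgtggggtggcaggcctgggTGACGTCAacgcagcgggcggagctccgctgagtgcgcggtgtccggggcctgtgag
Unc13a: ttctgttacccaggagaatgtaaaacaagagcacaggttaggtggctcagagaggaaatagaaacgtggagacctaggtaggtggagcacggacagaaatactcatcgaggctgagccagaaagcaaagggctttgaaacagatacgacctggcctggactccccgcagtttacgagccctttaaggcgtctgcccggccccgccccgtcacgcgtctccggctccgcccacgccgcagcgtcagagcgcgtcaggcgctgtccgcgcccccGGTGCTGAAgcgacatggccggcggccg
Rab3b: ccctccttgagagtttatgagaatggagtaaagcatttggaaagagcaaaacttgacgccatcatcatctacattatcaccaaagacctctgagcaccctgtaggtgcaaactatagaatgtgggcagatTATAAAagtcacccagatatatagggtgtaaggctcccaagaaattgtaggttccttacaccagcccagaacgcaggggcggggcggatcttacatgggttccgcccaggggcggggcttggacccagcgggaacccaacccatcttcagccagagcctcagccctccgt
In Syn1 the RE1 letters began at position -232 and the cAMP response element at position -159, counted from the annotated start. In Napa the cAMP response element began at -7. The RE1 letters of Unc13a began at 22, after the start, and TATAAA of Rab3b at -120. Syn1 was shown because it had the lowest spread between arrays of all members, and Rab3b because it was the 1 member whose groups did not overlap. Napa and Unc13a were shown as the other holders of the first 2 motifs.

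Release genes differed little between the cocaine-activated and shock-activated arrays. The deposited values are on the log2 scale, so a difference of 1 is a doubling, and differences are given as cocaine minus shock. Differences of the 50 members ran from -0.12 (Syt9) to 0.093 (Cplx1), with a median of 0.0058, beside a median of 0.0016 over all 22180 genes. A higher mean in the cocaine arrays was found for 29 of the 50 members, against 50.9% of all genes. After subtraction of each array's median the higher means were 40 of 50, against 13753 of 22180 genes. By limma with Benjamini-Hochberg adjustment over all genes, 0 of 50 members passed an adjusted p of 0.05 (smallest adjusted p = 0.938), as did 0% of all genes. At an unadjusted p under 0.05 by limma, 0 of 50 members were higher and 0 lower, against 1.53% and 1.57% of all genes. Leaving out cocaine array 7 gave a median over the members of -0.0076, and leaving out shock array 5 gave 0.024. The former fit had 1 member under an unadjusted 0.05, Rab3b, at an unadjusted p = 0.0239 by limma (adjusted p = 0.930), against 2.39% of all genes under it. The latter also had 1, Rph3a, at an unadjusted p = 0.0238 by limma (adjusted p = 0.943), against 3.55% of all genes.

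The precision of these comparisons was high for most members. The 95% confidence interval of the difference lay within a 1.2-fold change in either direction for 48 of 50 members (96%), against 75.2% of the genes above background and 61.7% of all genes. Background was set at 5.46, the 95th percentile among olfactory and vomeronasal receptor genes ranked by mean, and all 50 members lay above it, Syngr1 nearest to it at a mean of 5.81. Syt7 and Syt9 were the 2 members whose intervals reached beyond 1.2-fold, down to -0.38 and -0.33. All 50 intervals lay within a 1.5-fold change. The shares above set mostly bright members against genes of all levels, and genes of like level were not compared. Identical deposited values on several arrays, described below, lower the SD and so narrow some intervals.

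**Figure D1:**
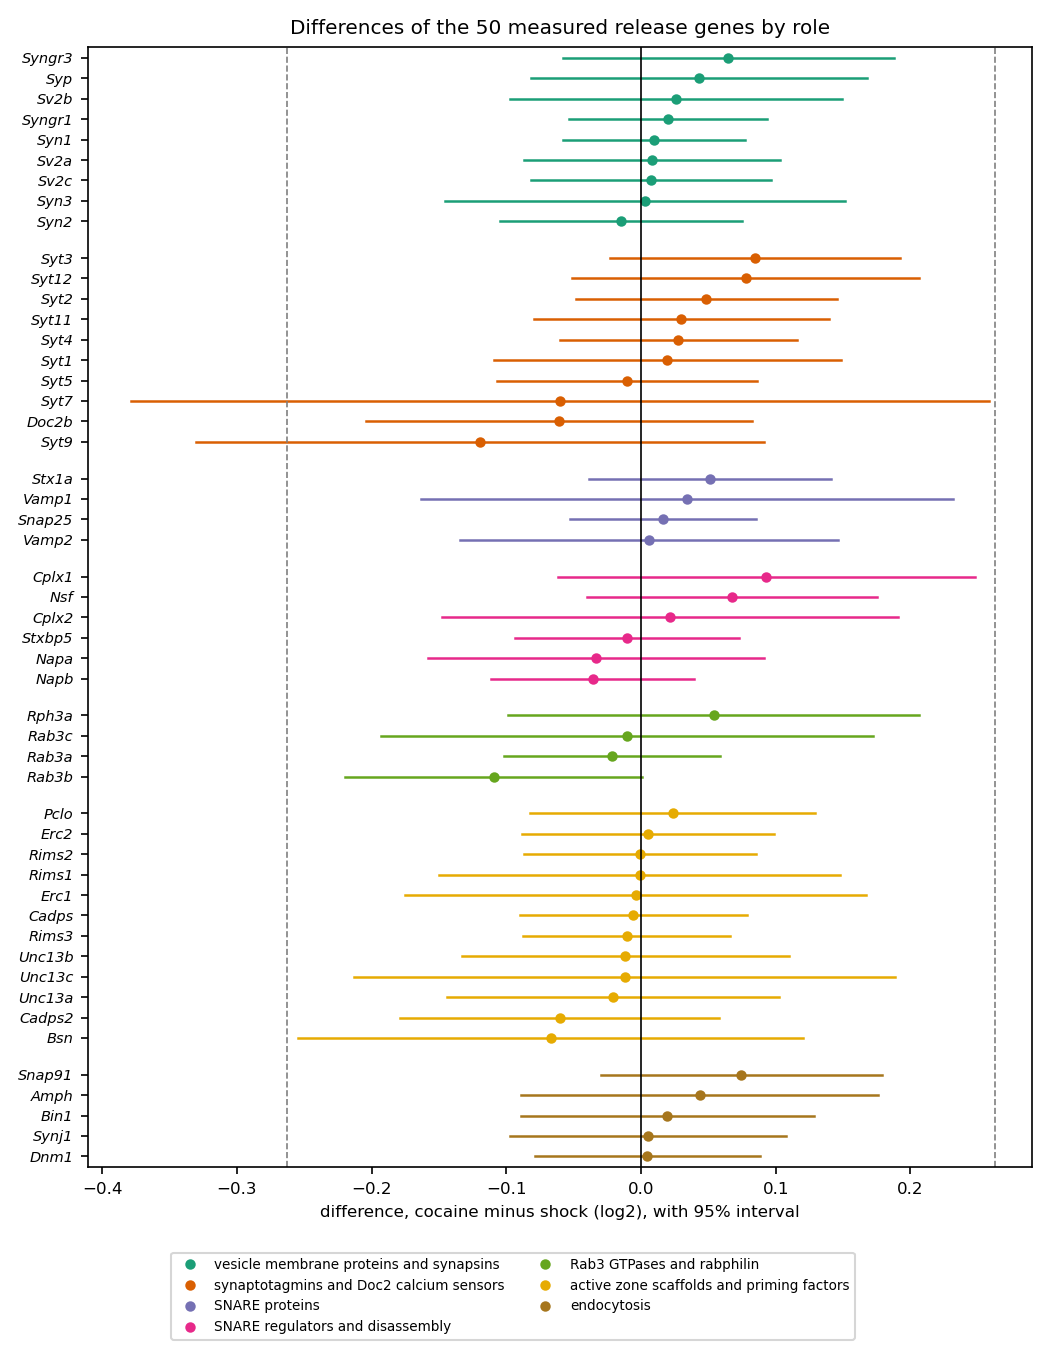
Difference of each of the 50 measured release genes, cocaine minus shock on the log2 axis (points), with limma's 95% confidence interval (bars), in blocks and colours by role. Dashed lines mark a 1.2-fold change in either direction; 48 intervals lie between them, and those of Syt7 and Syt9 reach past the left line.

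The vesicle membrane group held 9 members. Its median difference was 0.0099, 8 of 9 members had the higher mean on cocaine and 0 passed the test. Synapsins tether vesicles in the reserve pool. Syn1 had log2 values of 11.66, 11.65, 11.68 and 11.66 on cocaine arrays 4, 5, 6 and 7 and 11.65, 11.66 and 11.66 on shock arrays 4, 5 and 6. The groups overlapped within a band of 0.034, and Syn1 gave a difference of 0.010 (SE 0.028, interval -0.058 to 0.078). Syn2 differed by -0.015 and Syn3 by 0.0033. Syp, synaptophysin, an abundant vesicle membrane protein, had 11.75, 11.84, 11.85 and 11.90 on the cocaine arrays and 11.70, 11.83 and 11.83 on the shock arrays, in the same order of array numbers. Array 4 was the lowest in both groups, and Syp gave a difference of 0.043 (SE 0.052, interval -0.082 to 0.17), while its other probe set, under background at a mean of 5.04, differed by -0.023. For Syngr3, a synaptogyrin of the same protein superfamily, the cocaine arrays gave 10.75, 10.69, 10.78 and 10.87 and the shock arrays 10.73, 10.73 and 10.66. Cocaine array 7 was the highest and shock array 6 the lowest, with overlap of the groups and a difference of 0.065 (SE 0.051, interval -0.058 to 0.19). SV2 proteins are vesicle membrane proteins related to transporters. Sv2a and Sv2c differed by 0.0081 and 0.0074, and Syngr1 by 0.020. Without shock array 5 the group median was 0.029.

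Of the 10 measured synaptotagmin and Doc2 genes, 6 had a higher and 4 a lower mean on cocaine. Their median was 0.024, and 0 passed the test. Syt1, the principal fast sensor of forebrain neurons, had 12.21, 12.17, 12.24 and 12.33 on cocaine arrays 4 to 7 and 12.14, 12.29 and 12.23 on shock arrays 4 to 6. Its groups overlapped across most of their range, with a difference of 0.020 (SE 0.054, interval -0.11 to 0.15). Syt3, a sensor with high affinity for calcium, had 7.83, 7.76, 7.79 and 7.82 against 7.63, 7.76 and 7.76. Only shock array 4 lay apart from the others, which spanned 7.76 to 7.83, and Syt3 gave a difference of 0.085 (SE 0.045, interval -0.023 to 0.19) at an unadjusted p = 0.105 by limma. Without shock array 4 its difference was 0.041.

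Syt12, a family member that does not bind calcium, had the same deposited value of 7.68 on 5 of the 7 arrays. Its other arrays were cocaine array 5 at 7.76 and shock array 5 at 7.51, and its difference was 0.078 with all arrays and 0.019 without shock array 5. Syt9, a fast sensor used by some neurons, had 7.66, 7.51, 7.35 and 7.71 on the cocaine arrays and 7.68, 7.69 and 7.66 on the shock arrays. The shock arrays were close together and the cocaine arrays spread over 0.37, both above and below them, with a difference of -0.12 (SE 0.088, interval -0.33 to 0.091). Without cocaine array 6 the difference of Syt9 was -0.049. Syt7, a high-affinity sensor of slow and asynchronous release, had the widest spread of all members, with 10.33, 10.17, 9.84 and 10.17 on the cocaine arrays and 10.34, 10.24 and 9.97 on the shock arrays. Array 6 was the lowest and array 4 the highest in both groups, and Syt7 gave a difference of -0.060 (SE 0.13, interval -0.38 to 0.26). Among the rest, Syt4, whose gene is known to be inducible by activity, differed by 0.028 (SE 0.037), Syt5 by -0.010, Syt11 by 0.030 and Doc2b by -0.061. The 3 probe sets of Syt4 did not move the same way, with differences of 0.028, -0.016 and -0.084, the last on a probe set under background at a mean of 5.09. The group median was -0.0025 without shock array 4.

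SNARE proteins form the helical bundle that fuses the membranes. In all 4 members the cocaine mean was higher, by 0.0060 to 0.051, and 0 passed the test. Snap25, the plasma membrane SNARE that contributes a pair of helices, had 12.99, 12.99, 13.02 and 12.99 on the cocaine arrays and 12.99, 12.99 and 12.96 on the shock arrays. The same deposited value stood on 5 arrays, cocaine array 6 was higher and shock array 6 lower, and the difference was 0.016 (SE 0.029). Stx1a, syntaxin 1A of the plasma membrane, had 10.39, 10.39, 10.43 and 10.35 against 10.28, 10.38 and 10.34. Shock array 4 was the lowest, the remaining shock arrays lay near the cocaine arrays, and the gene gave a difference of 0.051 (SE 0.038, interval -0.038 to 0.14). Vamp2, the main vesicle SNARE of the forebrain, had 10.08, 9.90, 9.84 and 9.93 against 9.92, 9.97 and 9.90. Cocaine array 4 stood above the other 6 arrays, and without it the difference of 0.0060 became -0.040. Vamp1, its relative, had 8.18, 8.07, 8.05 and 8.09 against 8.23, 8.07 and 7.88, with the shock arrays spread on both sides of the cocaine arrays and a difference of 0.034 (SE 0.083, interval -0.16 to 0.23). The group median of 0.025 was -0.00065 without shock array 6.

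Of the 6 genes that clamp, block or disassemble SNARE complexes, 3 had a higher and 3 a lower mean on cocaine, with a median of 0.0058. Cplx1, complexin 1, had 10.35, 10.35, 10.34 and 10.49 on cocaine arrays 4 to 7 and 10.36, 10.35 and 10.16 on shock arrays 4 to 6. On 5 arrays the values lay between 10.34 and 10.36, cocaine array 7 was above and shock array 6 below them, and the groups overlapped. Its mean was 10.38 ± 0.071 (SD, n = 4) against 10.29 ± 0.11 (SD, n = 3). This gave a difference of 0.093 (SE 0.065, interval -0.062 to 0.25), which was 0.029 without shock array 6. Cplx2, complexin 2, had 10.48, 10.53, 10.46 and 10.58 against 10.53, 10.60 and 10.33. Shock array 6 was again the lowest array, and the difference of 0.022 turned to -0.059 without it. Nsf, the ATPase that takes used SNARE complexes apart, had 11.68, 11.72, 11.73 and 11.82 against 11.63, 11.72 and 11.66. Cocaine array 7 was the highest and the groups overlapped, with a difference of 0.068 (SE 0.045, interval -0.040 to 0.18). Napa and Napb, the adaptors that bring Nsf to SNAREs, differed by -0.033 and -0.036, and Stxbp5, tomosyn, an inhibitor of SNARE assembly, by -0.010. Napa, whose promoter is shown above, had 9.49, 9.53, 9.33 and 9.48 against 9.49, 9.49 and 9.49. Its shock arrays held 1 value, cocaine array 6 was the lowest, and the difference was 0.0091 without that array. Leaving out shock array 6 turned the group median to -0.022, and leaving out shock array 5 gave 0.035.

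Rab3 GTPases sit on vesicles and bind the active zone through RIM proteins. Rab3b was lower in every cocaine array than in any shock array, by a margin of 0.0012 between the closest arrays. It had 7.469, 7.528, 7.504 and 7.598 on cocaine arrays 4 to 7 and 7.600, 7.599 and 7.704 on shock arrays 4 to 6. Means were 7.52 ± 0.054 (SD, n = 4) and 7.63 ± 0.060 (SD, n = 3). Rab3b thus had a difference of -0.11 (SE 0.046, interval -0.22 to 0.00084). By limma the unadjusted p was 0.0513 and the adjusted p = 0.938, so the difference did not pass the test. It was the 1 of 50 members whose groups did not overlap with lower cocaine values, against 1.11% of all genes. In the higher direction 0 members had groups that did not overlap, against 1.25% of all genes. Leaving out an array changed how many groups did not overlap, among members and among all genes. Without cocaine array 4 or 5 the count was 4 of 50 (8%), against 5.05% and 5.80% of all genes. Without cocaine array 6 it was 1 (2%) against 4.04%, and without cocaine array 7 it was 2 (4%) against 4.26%. Without shock array 4, 5 or 6 it was 4, 5 and 3 (8%, 10% and 6%), against 8.70%, 9.68% and 8.41% of all genes. Rab3b was among the members counted in each of these 7 fits. This was fixed in advance, since leaving out an array cannot make separate groups overlap. The separation of Rab3b was lost after quantile normalization and after subtraction of the array medians. The relatives Rab3a and Rab3c differed by -0.022 and -0.010, and Rph3a, rabphilin, which binds Rab3, by 0.054. The kept probe set of Rab3c and its other probe set differed in sign (-0.010 and 0.070). Rph3a had 10.55, 10.57, 10.58 and 10.64 against 10.44, 10.68 and 10.48. Shock array 5 was the highest array, and without it the groups did not overlap and the difference was 0.13, while without shock array 4 the difference was 0.0051. The median over these 4 genes was -0.016, and it turned to 0.0092 without cocaine array 6 and to 0.0043 after subtraction of the array medians.

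**Figure D2:**
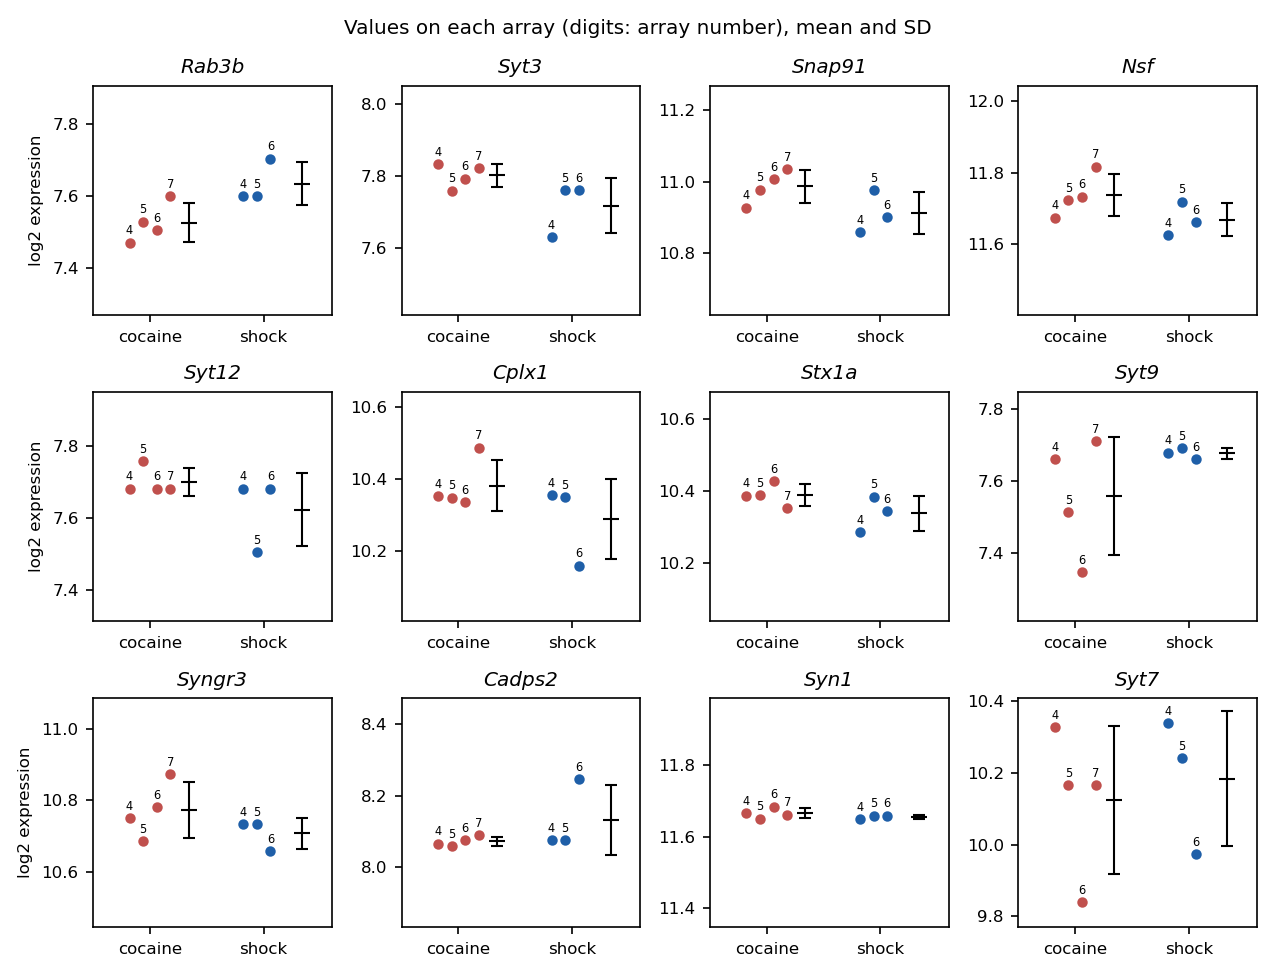
Log2 expression of 12 release genes on each array (points, digits giving the array number) with the mean and SD of each group (bar and whiskers), all panels spanning the same log2 range. Rab3b is the 1 gene here with no overlap of the groups, Syn1 lies within a band of 0.034, and Syt7 spreads most.

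Active zone scaffolds and priming factors had the smallest median absolute difference of the 7 role groups (0.011). Their 12 differences ran from -0.067 (Bsn) to 0.024 (Pclo) with a median of -0.0081, 10 of 12 had a lower mean in the cocaine arrays, and 0 passed the test. After subtraction of the array medians 3 of 12 were lower and the group median was 0.012, so the direction of this group depended on the scaling. Bsn and Pclo encode the giant scaffolds bassoon and piccolo. The difference of Bsn shrank to -0.0026 when shock array 5 was left out and was -0.14 when shock array 4 was, and its other probe set, at a mean of 6.40, differed by 0.012. RIM proteins link vesicles, calcium channels and scaffolds, and the differences of Rims1, Rims2 and Rims3 were -0.00074, -0.00064 and -0.011 (SE 0.062, 0.036 and 0.032). Munc13 proteins open syntaxin to prime vesicles. Unc13a had 9.75, 9.83, 9.83 and 9.91 on the cocaine arrays and 9.79, 9.93 and 9.83 on the shock arrays, with array 4 the lowest in both groups and a difference of -0.021 (SE 0.052, interval -0.14 to 0.10). Unc13b and Unc13c differed by -0.011 and -0.012. The ELKS scaffold genes Erc1 and Erc2 differed by -0.0040 and 0.0055. Cadps and Cadps2 prime dense-core vesicles, which carry peptides. Cadps2 had 8.07, 8.06, 8.08 and 8.09 against 8.08, 8.08 and 8.25. Shock array 6 was high and the other 6 arrays lay between 8.06 and 8.09, so that the difference of -0.060 became -0.0036 without it. Cadps differed by -0.0056. Leaving out cocaine array 4 gave a group median of 0.0085, and leaving out shock array 5 one of 0.018.

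In all 5 endocytosis genes the cocaine mean was higher, with a median of 0.020, and 0 passed the test. Snap91, the clathrin adaptor AP180, had 10.93, 10.98, 11.01 and 11.03 on the cocaine arrays and 10.86, 10.98 and 10.90 on the shock arrays. Shock array 5 reached the level of cocaine array 5, which left the groups overlapping, with a difference of 0.074 (SE 0.044, interval -0.030 to 0.18) at an unadjusted p = 0.135 by limma. Amph, amphiphysin, which bends membrane at the vesicle neck, differed by 0.044 with all arrays and by 0.0036 without shock array 4. Its relative Bin1, also used in glia and muscle, differed by 0.020. Synj1, the phosphatase that uncoats vesicles, and Dnm1, the GTPase that cuts them free, differed by 0.0052 and 0.0047 (SE 0.043 and 0.035). With cocaine array 7 left out the group median fell to 0.0027, and with shock array 5 left out it was 0.036.

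The median spread between arrays of a group was lower for release genes than for all genes above background. The pooled within-group SD had a median of 0.056 over the 50 members, against 0.077 over the genes above background and 0.093 over all genes. It was under 0.1 for 43 of 50 members (86%), against 67.1% of the genes above background. Syn1 (0.011) and Snap25 (0.015) were the steadiest members, at the 1.26th and 1.87th percentile of all genes, and Syt7 (0.199) the most variable, at the 87.6th. The members' median level stood at the 96.7th percentile of all genes, and their spread was not compared with that of genes of like level. Of the members, 24 had an identical deposited value on 2 or more arrays and 11 on 3 or more, against 66.9% of all genes on 2 or more. Such ties lower the SD and count as overlap where they fall between the groups.

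**Figure D3:**
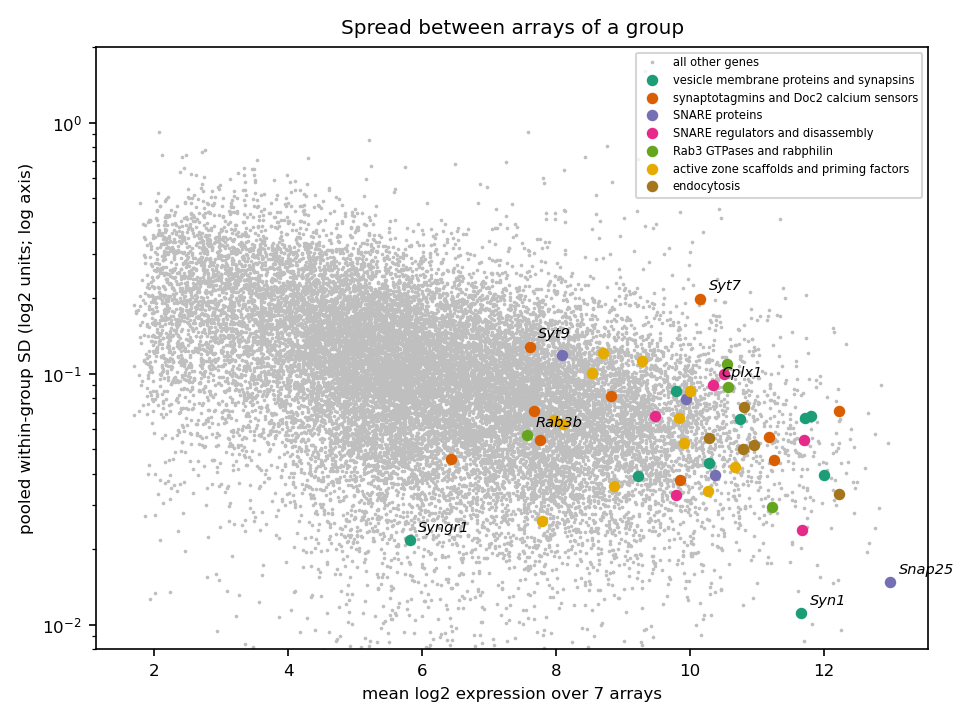
Pooled within-group SD of each gene (log axis, log2 units) against its mean log2 expression over the 7 arrays, with release genes coloured by role over all other genes in grey. Most members lie at the bright, low-spread end, with Syn1 and Snap25 lowest and Syt7 highest; the axis starts at 0.008, and 182 genes below it are not drawn.

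The level of the members as a group varied little across arrays. As the median over the 50 members of the value minus the gene's own mean, cocaine array 7 (0.024) and shock array 5 (0.021) were the highest and shock array 4 (-0.012) the lowest, with the other 4 between -0.0072 and 0.0054. Cocaine array 7 was above the gene mean for 40 of 50 members and shock array 5 for 39, against 20 to 27 on the other 5 arrays. Cocaine array 7 held the highest value of 13 members, and shock array 4 the lowest value of 17. The high arrays thus came 1 from each group. Over all genes the same medians lay between -0.00048 and 0.0015. Immediate early genes, the markers of recent activity, had a mean log2 level over 12 genes of 8.01 to 8.91 on the cocaine arrays and 7.42 to 8.80 on the shock arrays, with shock arrays 6 and 4 the lowest (7.42 and 7.52) and cocaine array 5 the highest. All 12 immediate early genes had the higher mean on cocaine, against 50.9% of all genes, with a median difference of 0.52. By limma 0 passed an adjusted p of 0.05 and 2 an unadjusted 0.05, against 1.53% of all genes in the higher direction. The part of immediate early genes in the release gene values was not tested.

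**Figure D4:**
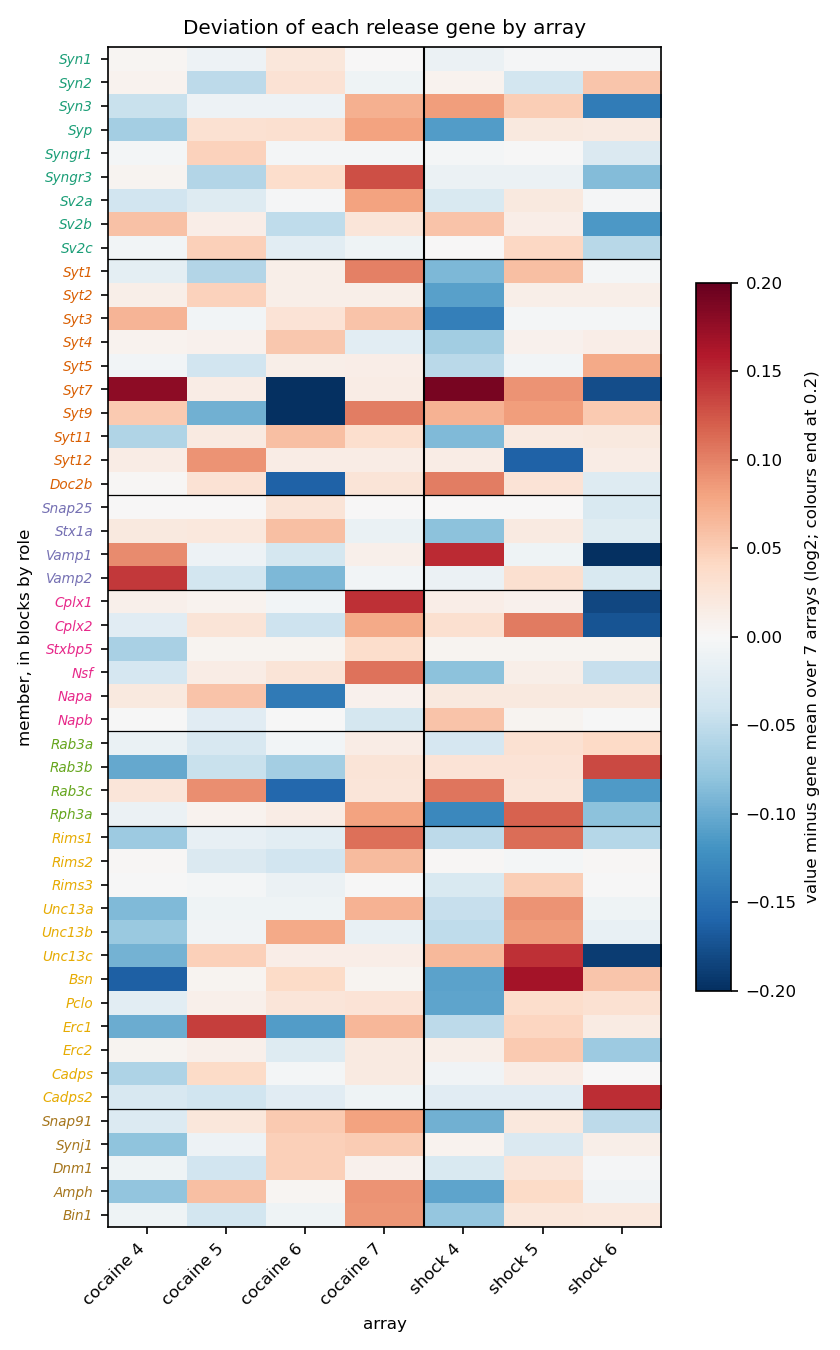
Value minus the gene's mean over the 7 arrays (log2, blue low and red high, colours ending at 0.2) for the 50 measured release genes (rows, in blocks by role) on each array (columns). Cocaine array 7 and shock array 5 are mostly red, above the gene mean for 40 and 39 of the 50 genes, and Syt7 and Syt9 reach furthest from their means.

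Complexin 1 was taken as the reference for shared patterns, and the correlations below describe 7 arrays after removal of the group means. Syn3 was the most like it (r = 0.95), then Cplx2 (0.91) and Erc2 (0.83), and Cadps2 ran most against it (-0.70). Cplx1 itself differed from its median most on shock array 6 and cocaine array 7. With these 2 arrays dropped, but the group means of all 7 arrays kept, the values were 0.92, 0.85, 0.77 and -0.99 over 5 arrays. The dropped arrays still shape these values through the group means, so the values cannot show if the patterns hold without them. Syn3, the third synapsin, had 9.75, 9.78, 9.78 and 9.86 on the cocaine arrays and 9.88, 9.84 and 9.65 on the shock arrays. Shock array 6 was the lowest array for Syn3, as for Cplx1, Cplx2, Vamp1 and Sv2b. The arrays share their normalization, and 7 points with the group means removed leave few degrees of freedom.

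**Figure D5:**
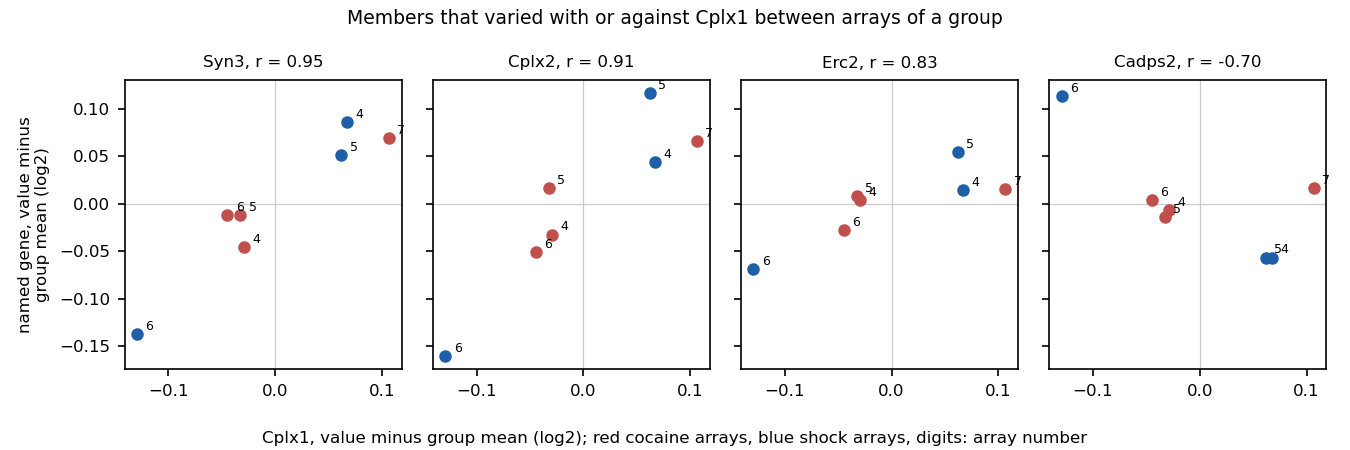
Value minus group mean (log2) of Syn3, Cplx2, Erc2 and Cadps2 against that of Cplx1, each point an array (red cocaine, blue shock, digits giving the array number). Syn3, Cplx2 and Erc2 rise with Cplx1 (r = 0.95, 0.91 and 0.83) with shock array 6 at the low end, and Cadps2 falls (r = -0.70).

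Members known to be more abundant in some interneurons differed in direction. Of these 5 genes, Rab3b was lower by 0.11 in the cocaine arrays, while Cplx1, Syt2, Vamp1 and Sv2c differed by 0.093, 0.049, 0.034 and 0.0074, with none past the test. Syt2, the fast sensor of parvalbumin interneurons, had the same deposited value of 6.45 on 5 arrays, with 6.48 on cocaine array 5 and 6.33 on shock array 4. Sv2c had 9.22, 9.27, 9.20 and 9.22 on the cocaine arrays and 9.22, 9.27 and 9.17 on the shock arrays, which overlapped across most of their range. Of 8 markers of inhibitory neurons 6 had a lower mean on cocaine, with a median of -0.10, and 0 passed the test. Their mean log2 level was 8.24 to 8.37 on the cocaine arrays and 8.33 to 8.52 on the shock arrays. Shock array 6 was the highest, and 7 of the 8 markers lay above background. The marker below it was Pvalb, the parvalbumin gene, at a mean of 5.29 and with a difference of 0.0297. Rab3b was also highest on shock array 6, whereas Vamp1, Cplx1 and Sv2c were lowest there. The part of interneuron content in these values was not tested. Members more abundant in excitatory neurons had small differences as well. Sv2b had 11.78, 11.73, 11.67 and 11.74 against 11.77, 11.73 and 11.60, with shock array 6 the lowest and a difference of 0.026 (SE 0.052, interval -0.097 to 0.15). With Cplx2 at 0.022, neither passed the test.

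Other genes of the vesicle cycle also had small differences. Of 127 further genes listed for release, vesicle refilling and endocytosis, 119 were measured, with a median difference of 0.011, and 0 passed an adjusted p of 0.05 or an unadjusted p of 0.05 by limma in either direction. After subtraction of the array medians their median was 0.031. Groups did not overlap for 1 of the 119, Eps15, an endocytic adaptor with a difference of -0.11, against the 1.11% of all genes given above for this direction. Among other synaptotagmins and C2 domain proteins, Syt10 differed by -0.19 and Syt14 by 0.11, with 10 of 13 higher and none past the test. Among other SNAREs and regulators, Snap47 differed by 0.086 and Stxbp6 by -0.11, with 11 of 26 higher. Vesicle membrane proteins and transporters had 6 of 15 higher, with Svop at 0.11 and Slc17a7, the vesicular glutamate transporter, at 0.081. The proton pump that powers refilling had 12 of 15 subunits and accessory genes higher with a median of 0.032, Atp6v0b at 0.050 and Atp6v1g1 at 0.060. Other active zone genes had 10 of 20 higher, with the liprin gene Ppfia1 at -0.068 and Madd, an exchange factor for Rab3, at 0.081. Other endocytosis genes had 18 of 30 higher, with Dnm2, the widely expressed dynamin, at -0.077.

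Marker genes of several cell types were read, although a level above background cannot check the tissue label. All 5 measured excitatory cortical markers, 7 of 7 astrocyte, 7 of 7 oligodendrocyte, 6 of 6 microglia and 6 of 6 endothelial markers lay above background, so markers of neurons and of other cells were both measurable. Excitatory markers had a mean log2 level of 9.89 to 9.95 on the cocaine arrays and 9.83 to 9.93 on the shock arrays. Endothelial markers were lower in the cocaine arrays for 6 of 6 genes (mean level 6.34 to 6.60 against 6.71 to 6.86) and astrocyte markers for 7 of 7 (8.74 to 9.04 against 8.91 to 9.10). By limma 0 of both lists passed an adjusted p of 0.05, and 3 of 6 and 0 of 7 had an unadjusted p under 0.05, against 1.57% of all genes in the lower direction. Markers of striatal projection neurons, cells that lie below the cortex, were higher in the cocaine arrays for 6 of 6 genes (mean level 9.16 to 9.32 against 8.98 to 9.09), of which 0 passed an adjusted and 3 an unadjusted 0.05, against 1.53% of all genes in the higher direction. The remaining non-neuronal lists did not share the lower direction. Oligodendrocyte markers were higher in the cocaine arrays for 5 of 7 genes (median difference 0.057) and microglia markers for 3 of 6 (median -0.034). None of them passed an adjusted p of 0.05 by limma. The oligodendrocyte marker Olig2 was lower at an unadjusted p = 0.0445 by limma, against 1.57% of all genes under 0.05 in that direction. The part of these cell types in the release gene values was not tested. Cocaine array 6 lay furthest from the other arrays over all genes (mean Euclidean distance 37.2, against 27.5 to 29.6 for the others). Without it the median of the release genes was 0.014, 33 of 50 had the higher mean on cocaine and 0 passed an adjusted p of 0.05.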

How the data were processed

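Values were measured on 7 one-colour Affymetrix arrays of ribosome-bound RNA (4 cocaine-activated, 3 shock-activated, groups from the labels). The deposited values were taken as log2 expression, a scale read from their range of 1.12 to 13.44. Transcriptome Analysis Console is named in the submitters' processing notes, while summarization, normalization and filters were not given in the sources used here. Quartiles were nearly equal on the 7 arrays, so each difference is relative to the rest of the array. The number of arrays limits the precision.

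Of 41345 probe sets, 23521 had 1 gene symbol in the platform annotation, 1814 several and 16010 none listed. The probe set of highest mean was kept per gene (22180 genes). limma 3.58.1 in R 4.3.3 (lmFit, eBayes, two-sided, no covariate) was fitted to all genes, with Benjamini-Hochberg adjustment at 0.05 and 95% intervals, and tested on simulated data. Members, gene lists and named genes were chosen with earlier results of these data known, so no list test was run. Named with all array values were the 10 members of smallest unadjusted p, core fusion and vesicle genes, interneuron- and excitatory-enriched members and those of lowest and highest SD, and per other list the 2 genes of smallest p. Rph3a, Napa, Unc13a and Syn3 were added after their values were seen. Alternatives were each array left out, quantile normalization, median subtraction, no dim genes, averaged probe sets per gene, other moderation, array weights and the title number as a block. Array numbers were not taken as pairs. Promoter sequences are from RefSeq (GRCm38.p6).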

Additional observations from a re-analysis of the deposited data

Results flagged for a closer look

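Among the 4 cocaine arrays, 8 of 58 measures (the 50 members and the median deviations of the members and of 7 role groups) had a highest or lowest array whose gap to the nearest other array, divided by the range, exceeded Dixon's 95% critical value for 4 samples. About 5% of groups exceed it by chance, which is 2.9 of 58 if the measures were independent. Equal values on 2 or more cocaine arrays occurred in 5 of the 8. The shock group has 3 arrays and was not tested this way.

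Cocaine array 5 was the highest for Syngr1 (0.9946 of the range), Syt2 (1) and Syt12 (1), where the other 3 arrays were equal or nearly so. Cocaine array 6 was the lowest for Doc2b (0.8611), at 8.66 against 8.83 to 8.86, and the highest for Snap25 (1), at 13.02 against 12.99. Cocaine array 7 was the highest for Cplx1 (0.8969). Cocaine array 4 was the lowest for Bsn (0.8337), at 9.12 against 9.29 to 9.32, and had the highest median deviation of the SNARE proteins (0.9525), at 0.057 against -0.0052 to -0.0022, with Vamp1 and Vamp2 both at their cocaine maximum there.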

How the results depend on the processing

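No member passed an adjusted p of 0.05 under the 15 alternatives. The replicate block, in which cocaine array 7 stood alone, gave the same differences as leaving out that array. The number past an unadjusted p of 0.05, 0 with all arrays, was 0 to 1 when an array was left out and 1 with dim genes left out, with trend and robust moderation and with the replicate block, Rab3b in each of these 3, against 3.27%, 2.98% and 4.13% of all genes tested. Members without overlap of the groups, 1 with all arrays, were 1 to 5 (2% to 10%) when an array was left out, against 4.04% to 9.68% of all genes, and 5 (10%) after subtraction of the array medians (Snap25, Syngr1, Syt12, Syt2 and Syt3), against 11.4% of all genes. After quantile normalization Napb was the 1 such member in place of Rab3b, against 4.69%. The median over the members (0.0058) ran from -0.0076 to 0.024 when an array was left out and was 0.026 after subtraction of the array medians, which moved the median of all genes to 0.022. That setting gave 0.030 for vesicle membrane proteins and 0.031 for the other vesicle cycle genes. When an array was left out, the medians ran 0.0097 to 0.029 for vesicle membrane proteins, -0.022 to 0.035 for SNARE regulators and 0.0054 to 0.015 for the other vesicle cycle genes. The cause was not tested.

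The sign of 20 of the 50 differences held under every alternative, but 49 of the 50, all except Rab3b, turned or moved by over 1.5 times when some array was left out. The ranges of these 20 with an array left out were Amph 0.0036 to 0.076, Bsn -0.14 to -0.0026, Cadps2 -0.089 to -0.0036, Cplx1 0.029 to 0.13, Doc2b -0.091 to -0.016, Napb -0.046 to -0.018, Nsf 0.041 to 0.093, Rab3a -0.045 to -0.0078, Rab3b -0.13 to -0.075, Rph3a 0.0051 to 0.13, Snap25 0.0060 to 0.022, Snap91 0.048 to 0.11, Stx1a 0.025 to 0.075, Syn1 0.0037 to 0.015, Syngr1 0.0076 to 0.025, Syngr3 0.031 to 0.094, Syt12 0.019 to 0.11, Syt2 0.0086 to 0.069, Syt3 0.041 to 0.11 and Syt9 -0.17 to -0.049. The other 30 turned at least once, and none of them was called with all arrays. After subtraction of the array medians these were Syn2 0.0055, Syt5 0.0097, Stxbp5 0.010, Rab3c 0.010, Rims1 0.019, Rims2 0.019, Rims3 0.0096, Unc13b 0.0086, Unc13c 0.0079, Erc1 0.016 and Cadps 0.014. With array weights they were Syn3 -0.0094, Rab3c 0.0030, Rims1 0.0029, Rims2 0.0076, Erc1 0.025 and Dnm1 -0.0027, after quantile normalization Syn3 -0.00075 and Rims2 0.00056, and with the mean of the probe sets Syt4 -0.024 and Rab3c 0.030. When an array was left out, 29 turned, with ranges of Syn2 -0.037 to 0.0088, Syn3 -0.066 to 0.046, Syp -0.00028 to 0.072, Sv2a -0.017 to 0.022, Sv2b -0.024 to 0.062, Sv2c -0.018 to 0.030, Syt1 -0.019 to 0.055, Syt5 -0.040 to 0.025, Syt7 -0.17 to 0.035, Syt11 -0.0061 to 0.054, Vamp1 -0.056 to 0.12, Vamp2 -0.040 to 0.037, Cplx2 -0.059 to 0.080, Stxbp5 -0.023 to 0.0099, Napa -0.057 to 0.0091, Rab3c -0.070 to 0.041, Rims1 -0.037 to 0.055, Rims2 -0.022 to 0.012, Rims3 -0.029 to 0.011, Unc13a -0.050 to 0.018, Unc13b -0.040 to 0.027, Unc13c -0.11 to 0.057, Pclo -0.022 to 0.048, Erc1 -0.051 to 0.033, Erc2 -0.029 to 0.033, Cadps -0.019 to 0.014, Synj1 -0.011 to 0.033, Dnm1 -0.011 to 0.018 and Bin1 -0.014 to 0.036.

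The title numbers 4, 5 and 6 occur in both groups, and nothing says that they pair the arrays. Over all genes, deviations from the group means correlated at 0.128, 0.064 and 0.158 between arrays of the same number 4, 5 and 6. Arrays 4 to 6 of different numbers correlated at -0.097 to -0.019. The shock deviations cancel out for each gene, so a positive value with a shock array forces a negative one with another. Cocaine array 7, whose number no shock array has, correlated at 0.038, 0.090 and -0.12 with shock arrays 4, 5 and 6. The numbers were not taken as pairs because the labels do not say what they stand for. Whether arrays of a number share a batch was not tested. In the replicate block cocaine array 7 stood alone, so that fit took its differences from arrays 4 to 6 of both groups. These differences equal those found with cocaine array 7 left out, so the turned signs cannot be credited to the title numbers. With the replicate block, 6 differences turned, Syn3 -0.020, Sv2a -0.017, Syt1 -0.011, Cplx2 -0.00053, Synj1 -0.011 and Bin1 -0.0068, the median over the members was -0.0076, and the number past an unadjusted p of 0.05 was 1.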

Other observations

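Arrays that share a title number were compared after the values had been seen. Among the arrays numbered 4, 5 and 6, number 4 was the lowest in both groups for 14 of 50 members (28%), against 9.70% of all genes and 11.5% of the genes above background. These were Syp, Sv2a, Syt4, Syt11, Stx1a, Nsf, Rph3a, Unc13a, Unc13b, Bsn, Pclo, Cadps, Snap91 and Amph, which span vesicle proteins, a SNARE, active zone scaffolds and endocytosis. Number 6 was the lowest in both groups for 12 members (24%), against 15.0% of the genes above background. Those were Syngr1, Sv2b, Sv2c, Syt7, Syt9, Doc2b, Vamp1, Vamp2, Cplx1, Cplx2, Rab3c and Erc2, with both complexins and both VAMP genes among them. Number 5 was the lowest in both groups for 1 member (2%), Syn2, against 8.21% of all genes.

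Over the 50 members, deviations from the group means correlated at 0.53 between cocaine array 4 and shock array 4 and at 0.45 between cocaine array 6 and shock array 6, but at 0.020 between the arrays numbered 5. The lowest value for arrays of different numbers was -0.53 (cocaine array 6 with shock array 4) and the highest 0.27 (cocaine array 7 with shock array 5). Deviations from a group mean cancel out within the group, so the values for different numbers are tied to those for the same number. The genes are not independent, and the labels do not say what the numbers stand for.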
